A study of Mus musculus with 4 samples.

Results

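Chemokines are small secreted proteins that bind G protein-coupled receptors and guide the migration of leukocytes. Activated T cells are a source of several of them: Ccl3, Ccl4 and Ccl5 encode inflammatory CC chemokines, and the product of Ccl20 signals through CCR6, the product of Xcl1 through XCR1 on cross-presenting dendritic cells, and the product of Cxcl10 through CXCR3. Ccl3, Ccl4, Ccl5 and Xcl1 are commonly associated with effector, natural killer and innate-like lymphocytes, and Cxcl10 with responses to interferon. These 6 genes were chosen by name, out of 32285 genes in the count tables, of which 19166 had at least 1 UMI (unique molecular identifier, a tag that counts each captured RNA molecule once) in the cells kept.

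The cells were CD3+CD4+ T cells sorted from spleens of C57BL6/J mice and cultured for 6 hours with anti-CD3/anti-CD28 Dynabeads in RPMI with 10% serum, so every group had been stimulated and no resting culture was analysed here. There were 4 libraries, 1 of each sex and labelled genotype: a female and a male Irf5-/- library, and a female and a male WT library, all made with 10x Single Cell 3′ v3.1 chemistry. Irf5 encodes an interferon regulatory factor. Neither the number of mice behind a library nor whether cultures were separate is given in the labels, so the spread between these libraries may be partly technical. Irf5 itself went against the labels: it had 293 and 432 UMIs in the female and male libraries labelled knockout, and 15 and 55 in those labelled wild type. The deleted part of the gene is not given in the sources used here, so the 3′ counts do not check the genotype, and all directions below are between libraries as labelled.

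Cells with at least 2000 UMIs, at least 500 detected genes and at most 10% mitochondrial UMIs numbered 6178 and 1814 in the female libraries labelled knockout and wild type, and 6543 and 4565 in the male ones, 19100 in all. Their medians were 5104.5, 8416, 6741 and 9661 UMIs per cell, in that order of libraries, which is kept throughout. The female library labelled wild type stood apart: it had the fewest cells, and droplets with fewer than 200 UMIs, a measure of free RNA, held 36.2% of its UMIs against 8.62% to 14.7% in the other 3. Pairs of libraries shared 2 to 14 cell barcodes. The sort was visible in the marker genes, with Cd4 at 44.4 to 53.9 and Cd3e at 162 to 200 CPM (UMIs per 1000000 UMIs of the kept cells), and Cd8a at 0.0430 to 0.312 CPM.

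The members lie on 3 chromosomes of GRCm38. Ccl5 (ENSMUSG00000035042, chr11:83525778-83530518, minus strand), Ccl3 (ENSMUSG00000000982, chr11:83647844-83649355, minus strand) and Ccl4 (ENSMUSG00000018930, chr11:83662584-83664683, plus strand) belong to the same chemokine gene cluster. Ccl3 and Ccl4 are 13.2 kb apart and point away from each other, and Ccl5 and Ccl3 are 117 kb apart. Ccl20 (ENSMUSG00000026166, chr1:83116766-83119167, plus strand) and Xcl1 (ENSMUSG00000026573, chr1:164931644-164935527, minus strand) are far apart on chromosome 1, and Cxcl10 (ENSMUSG00000034855) is at chr5:92346638-92348889 on the minus strand. Cxcl10 overlaps Art3 and Xcl1 overlaps Gm20743 on the opposite strand. The use of strand in counting is not given in the sources used here, so the counts of Cxcl10 and Xcl1 are uncertain in that respect.

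The 250 bases before the RefSeq start (GRCm38.p6) are shown for 3 members, Cxcl10, Ccl20 and Ccl3. They were picked knowing that their windows differ in the motifs they hold. Any link between these motifs and the cells that made each gene was not tested. A start was in the promoter table for 4 of the 6 members, and Ccl4 and Ccl5 were not among them. Capitals mark matches, on either strand, to the consensus of the interferon-stimulated response element (here GAAAGTGAAAC), to TGANTCA (the AP-1 site) and to the NF-kB consensus. The windows are chr5:92348890-92349139 for Cxcl10 (minus strand), chr1:83116516-83116765 for Ccl20 (plus strand) and chr11:83649379-83649628 for Ccl3 (minus strand), each 5′ to 3′.
Cxcl10: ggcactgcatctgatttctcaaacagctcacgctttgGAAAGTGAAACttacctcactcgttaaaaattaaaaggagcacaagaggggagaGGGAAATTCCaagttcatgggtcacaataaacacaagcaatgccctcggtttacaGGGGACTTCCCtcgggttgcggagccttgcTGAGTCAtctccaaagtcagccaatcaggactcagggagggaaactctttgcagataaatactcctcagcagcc
Ccl20: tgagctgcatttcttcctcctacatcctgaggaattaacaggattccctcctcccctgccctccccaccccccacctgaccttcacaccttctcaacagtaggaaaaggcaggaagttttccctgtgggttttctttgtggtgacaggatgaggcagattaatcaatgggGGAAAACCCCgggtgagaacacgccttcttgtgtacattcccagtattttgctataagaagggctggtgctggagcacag
Ccl3: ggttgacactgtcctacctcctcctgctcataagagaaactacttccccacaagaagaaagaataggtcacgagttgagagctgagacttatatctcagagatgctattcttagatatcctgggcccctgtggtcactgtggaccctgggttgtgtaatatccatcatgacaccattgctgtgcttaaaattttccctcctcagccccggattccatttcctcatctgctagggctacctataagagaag

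The Cxcl10 window held 1 match to the interferon-stimulated response element, starting 213 bases before the start site, a motif found in 0.685% of 32851 windows of the same length. It also held 3 matches to the NF-kB consensus, starting 159, 104 and 103 bases before the start site, the last 2 overlapping, and 1 AP-1 match at 74 bases. These motifs occurred in 7.25% and 6.75% of all windows. The Ccl20 window held 1 NF-kB match at 80 bases, and the windows of Ccl3 and Xcl1 held none of the 3 motifs. The short NFAT core GGAAA, in 55.6% of all windows, occurred 3 times each in Cxcl10 and Ccl20, 2 times in Ccl3 and 1 time in Xcl1, in part inside the longer matches. A match describes the letters and not a bound site.

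Cxcl10 had the highest level of the 6 genes and Ccl20 the lowest. The levels below are CPM over all kept cells; because a 3′ library gives 1 tag per molecule, they need no scaling by gene length. The order Cxcl10, Ccl4, Ccl5, Xcl1, Ccl3, Ccl20 held in each of the 4 libraries, but in the male library labelled wild type the neighbours Xcl1 and Ccl3 (4.15 to 5.43 and 3.89 to 5.13 CPM, 95% Poisson intervals) and Ccl3 and Ccl20 (3.49 to 4.67 CPM for Ccl20) did not differ beyond counting error.

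**Figure D1:**
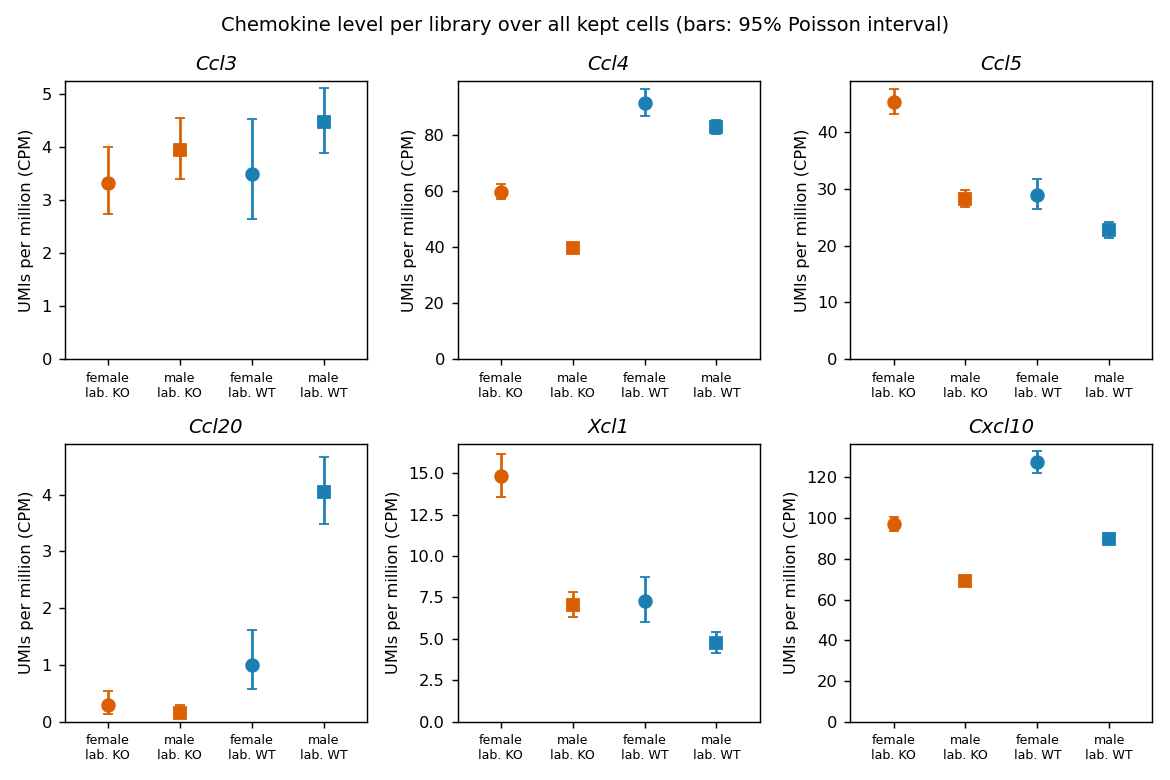
Level of each chemokine gene in each library, in CPM over all kept cells, with 95% Poisson intervals that cover counting error only; each panel has its own axis. Ccl4 was below 60 CPM in both libraries labelled knockout and above 80 CPM in both labelled wild type, and the Ccl20 panel is dominated by the male library labelled wild type (4.05 CPM).

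Of the 3 inflammatory CC chemokine genes on chromosome 11, Ccl4 was at 59.7, 91.5, 39.5 and 82.8 CPM (2042, 1466, 1882 and 3846 UMIs). Both libraries labelled knockout lay below both labelled wild type. Ccl5 was at 45.4, 29.0, 28.2 and 22.7 CPM; the female library labelled knockout was highest and the groups overlapped. Ccl3 was low, at 3.33, 3.49, 3.95 and 4.48 CPM. These similar levels rest on few cells. In the male library labelled knockout 94 of 188 UMIs were in 1 cell, and in the female one labelled wild type 26 of 56 were in 1 cell.

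Ccl20, which attracts CCR6-bearing cells, was at 0.292, 0.998, 0.147 and 4.05 CPM, or 10, 16, 7 and 188 UMIs. The libraries labelled knockout were the lower 2, and the male library labelled wild type held most of the UMIs. Xcl1 was at 14.8, 7.30, 7.03 and 4.76 CPM, with the female library labelled knockout highest and the groups overlapping. Cxcl10 was at 97.0, 128, 69.1 and 89.9 CPM: within each sex the library labelled knockout was lower, while the groups overlapped across sexes.

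Groups that do not overlap are common with 2 libraries against 2: 35.7% of the 12855 genes tested had both libraries labelled knockout outside both labelled wild type (18.4% above and 17.3% below), and 2 of the 6 members did, both below.

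The genotype comparison asked whether the labelled genotypes differ, in 1 edgeR quasi-likelihood fit over all genes with sex as a covariate, which leaves 1 residual degree of freedom. The p-values of edgeR therefore rest largely on a variance shared across genes. They are a weak measure of the spread of a single gene between libraries. The fit called 155 of 12855 genes at a Benjamini-Hochberg adjusted p under 0.05, or 1.21%. With the label knockout over wild type, 0.809% of the genes tested were higher and 0.397% lower. Of the 6 members, 3 were called lower and 1 higher. The median log2 fold change of the members was -0.33, beside 0.00 over all genes tested.

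Ccl4 fell in the libraries labelled knockout by a log2 fold change of -0.91 (SE 0.11, edgeR adjusted p = 4.61e-04), with -0.66 between the female and -1.15 between the male libraries. It ranked 6 among the lower genes by p. Ccl20 fell by -3.59 (SE 0.53, edgeR adjusted p = 0.00313), with -1.63 in females and -4.42 in males. The fall of Ccl20 rests on few cells: 119 of the 188 UMIs of the male library labelled wild type were in 1 cell. Cxcl10 fell by -0.45 (SE 0.08, edgeR adjusted p = 0.0174), by nearly the same amount in both sexes (-0.44 and -0.47).

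Xcl1 rose by 0.71 (SE 0.14, edgeR adjusted p = 0.0216), with 0.97 in females and 0.47 in males. The values for Ccl5 were 0.41 (SE 0.09, edgeR adjusted p = 0.0619) and for Ccl3 -0.21 (SE 0.17, edgeR adjusted p = 0.905), neither past the threshold. With 3 libraries the sex term could not be kept, and dropping it with all 4 libraries already ended the calls of Ccl4 (-0.88, edgeR adjusted p = 0.450), Ccl20 (-3.73, 0.437), Cxcl10 (-0.45, 0.906) and Xcl1 (0.83, 0.906). The fits that leave out 1 library therefore change 2 choices at once. Without the female library labelled wild type, the values were -0.84 for Ccl4 (edgeR adjusted p = 0.183), -0.21 for Cxcl10 (0.790) and 1.09 for Xcl1 (0.436), none of them called, and Ccl20 was called at -4.34 (0.0130). Among the 4 fits that each left out 1 library, Ccl4 was called in the one without the female library labelled knockout (-1.20, edgeR adjusted p = 3.08e-04) and was not called without either male library (-0.61 without the one labelled knockout and -0.93 without the one labelled wild type). Xcl1 was called without the male library labelled knockout (1.27, edgeR adjusted p = 0.0134), but not without the female one (0.20) or the male library labelled wild type (0.53). Ccl20 was not called without the male library labelled knockout (-3.26) or the one labelled wild type (-2.25, edgeR adjusted p = 0.281), Ccl5 was called without the male library labelled knockout (0.75, edgeR adjusted p = 0.0364), and Cxcl10 was called in none of the 4 fits (-0.71 to -0.21).

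The sex comparison used the same fit, and 168 genes (1.31%) were called, 1.2% lower and 0.109% higher in males. Xcl1 (-0.86, SE 0.14, edgeR adjusted p = 0.00759), Ccl5 (-0.51, SE 0.09, adjusted p = 0.0172) and Cxcl10 (-0.47, SE 0.08, adjusted p = 0.0146) were lower in the male libraries. Ccl4 (-0.34, adjusted p = 0.236), Ccl3 (0.32, adjusted p = 0.758) and Ccl20 (1.18, adjusted p = 0.587) did not pass. Ccl4 and Ccl20 were thus called by genotype and not by sex, but whether the 2 effects differ from each other was not tested.

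The levels split into how many cells made a chemokine and how much each producer held. To compare libraries of unequal depth, each cell was thinned to 2000 UMIs, and a producer was a cell with at least 1 UMI of the gene. Group values are means ± SD over 2 libraries, tested by a two-sided exact permutation test, whose smallest possible p is 0.33.

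Cxcl10 had the most producers, 8.42%, 10.7%, 7.50% and 9.42% of cells. The libraries labelled wild type were the higher 2, at 10.1% ± 0.902 against 7.96% ± 0.645 (n = 2 each, exact permutation p = 0.33). Each producer held similar amounts, 2.83, 2.82, 2.27 and 2.33 UMIs, which followed sex and not the labelled genotype. For comparison, 9.81% of cells in the resting naive-like cluster 0 had a Cxcl10 UMI, but 0.328% to 0.962% of cells per library in cluster 1 at the same thinned depth.

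Ccl4 producers were 2.80%, 3.58%, 1.91% and 3.59% of cells (173, 65, 125 and 164 cells). The libraries labelled wild type were higher in share, 3.59% ± 0.007 against 2.36% ± 0.629 (n = 2 each, exact permutation p = 0.33). They were also higher in UMIs per producer, at 3.55, 4.49, 3.21 and 4.29 UMIs, without overlap (exact permutation p = 0.33, n = 2 each). The share in cluster 0, whose cells should make little Ccl4, was 0.282%.

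Ccl5 producers were 2.28%, 1.54%, 1.76% and 1.10% of cells, against 0.257% in cluster 0, and held 4.89, 5.46, 4.20 and 4.10 UMIs each, more than for Ccl4 in 3 of the 4 libraries. In share, the libraries labelled knockout were the higher 2 (2.02% ± 0.371 against 1.32% ± 0.317, n = 2 each, exact permutation p = 0.33). Xcl1 producers were 0.874%, 0.551%, 0.672% and 0.416% of cells, against 0.0770% in cluster 0. They too were more frequent in the libraries labelled knockout (0.773% ± 0.143 against 0.484% ± 0.096, n = 2 each, exact permutation p = 0.33).

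Ccl3 and Ccl20 were made by very few cells. After thinning, Ccl3 had 19, 4, 11 and 10 producers, or 0.308%, 0.221%, 0.168% and 0.219% of cells, with no separation of the groups (exact permutation p = 1). Ccl20 had 2, 3, 0 and 4 producers. The 0 of 6543 cells allows a share of up to 0.0459% of cells with a UMI at the thinned depth, which does not limit the share of expressing cells: at full depth that library had 4 cells with Ccl20. At full depth 94 cells had Ccl3, 946 Ccl4, 519 Ccl5, 17 Ccl20, 243 Xcl1 and 2715 Cxcl10.

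**Figure D2:**
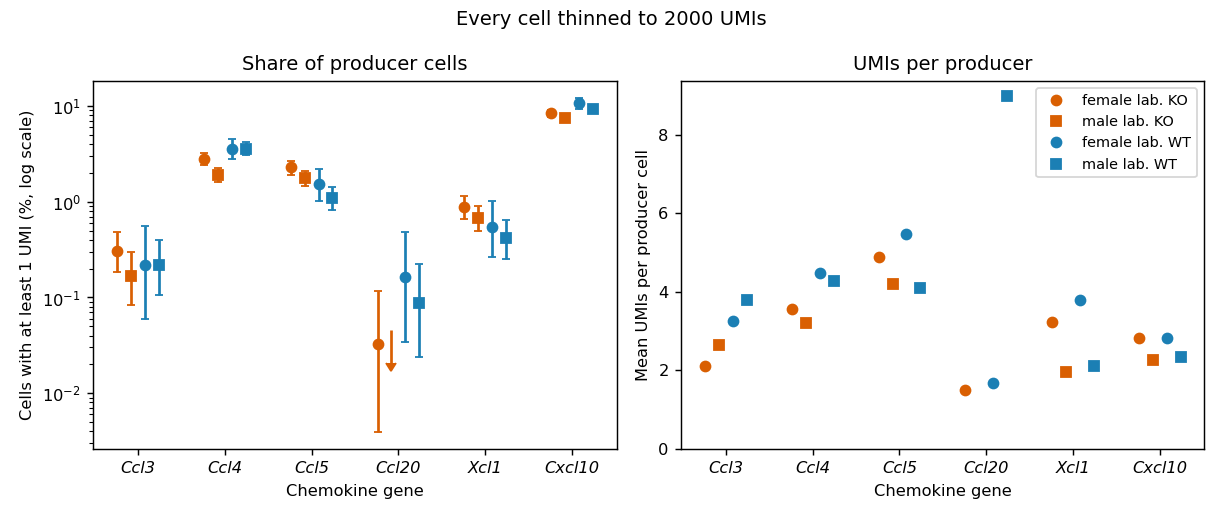
Share of cells with at least 1 UMI (left, percent, log scale, exact 95% binomial intervals) and mean UMIs per producer cell (right) for each chemokine gene and library, with every cell thinned to 2000 UMIs. For Ccl4 both panels are higher in the libraries labelled wild type, while for Cxcl10 only the left one is; the arrow starts at the limit that 0 thinned producers allows for Ccl20 in the male library labelled knockout.

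Chemokine RNA was concentrated in few cells. The top 1% of cells, ranked separately for each gene and library, held 100% of the UMIs of Ccl3 and of Ccl20, 96.2% ± 1.53 of Xcl1, 87.4% ± 6.29 of Ccl5, 72.5% ± 8.45 of Ccl4 and 36.7% ± 2.64 of Cxcl10 (SD, n = 4 libraries). In every library fewer than 1% of cells had a UMI of Ccl3 or of Ccl20, so their 100% could not be lower. For genes of the same response measured in the same way, the share was 98.9% for Ifng, 81.7% for Csf2, 55.9% for Il2 and 18.0% for Tnf. The early activation genes Nr4a1 and Cd69 were at 7.41% and 5.80%, near the 4.98% of Actb and 3.52% of B2m, which every cell uses.

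Low counts alone concentrate a gene, so Ccl4, Cxcl10, Ccl5 and Xcl1 were set beside genes with at least as many UMIs. Of 2249 such genes, 2 had a larger top 1% share than Ccl4, namely the haemoglobin gene Hbb-bs and the immunoglobulin gene Igkc. For Cxcl10 it was 3 of 1614 genes (Igkc, Il2 and Xist), for Ccl5 3 of 3962 and for Xcl1 8 of 7194, among the 8740 genes with at least 500 UMIs. No gene could exceed the 100% of Ccl3, so the comparison cannot be read for it, and Ccl20 had too few UMIs to be ranked. The number of cells that together held 50% of the UMIs in a library was 37 to 117 for Cxcl10, 12 to 29 for Ccl4, 4 to 17 for Ccl5, 3 to 10 for Xcl1, 1 to 4 for Ccl3 and 1 to 2 for Ccl20.

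The highest single cells carried 272 UMIs of Ccl4, 181 of Ccl5, 119 of Ccl20, 109 of Xcl1, 94 of Ccl3 and 89 of Cxcl10. The cell highest for Ccl4 was in cluster 12a, in the male library labelled knockout, as was the cell highest for Ccl3. The highest Cxcl10 cell was in cluster 6, in the male library labelled wild type, and 15 of the 20 highest Cxcl10 cells were in that cluster. Doublet calls at 0.8% per 1000 cells marked 0 of the 20 highest cells of Ccl3, Ccl4, Xcl1 and Cxcl10 and 1 of Ccl5. They marked 5 of the 20 highest for Ccl20, of which 17 had a UMI, against 4.40% of all cells, and without doublets the Ccl20 genotype value was -5.43 (edgeR adjusted p = 0.00216).

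**Figure D3:**
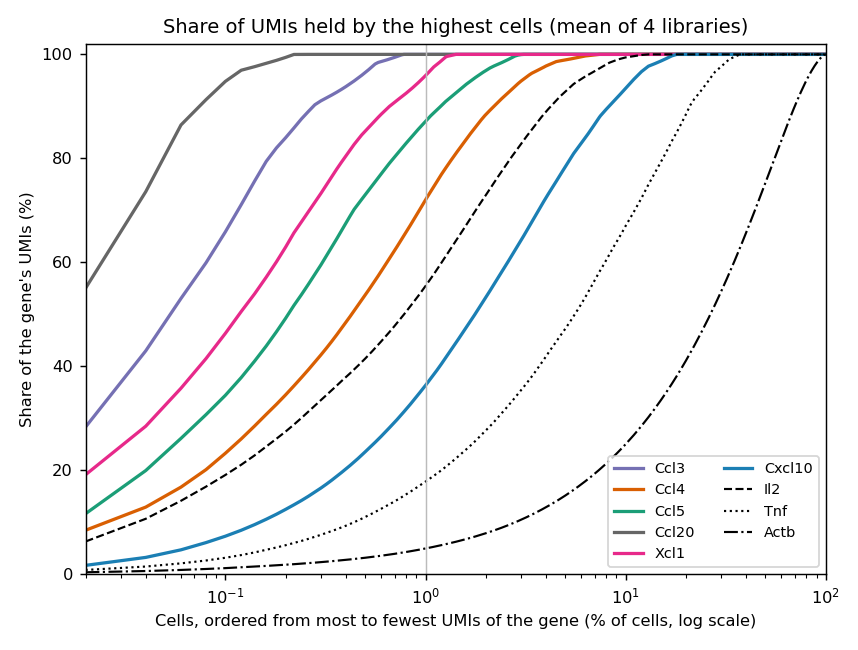
Cumulative share of each gene's UMIs (percent) held by the highest cells (percent of cells, log scale), as the mean of 4 libraries, for the 6 chemokine genes and for Il2, Tnf and Actb; the grey line marks 1% of cells. At 1% of cells, Cxcl10 is at 36.7%, Ccl4 at 72.5% and Ccl3 and Ccl20 at 100%, with Actb at 4.98%.

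To see which cells the producers were, cells were clustered without the 6 genes, and levels were described per cluster. Clusters were made from the same cells, so none is tested against the rest. Cluster 0 (3895 cells, Il7r, S1pr1, Itga6) is resting naive CD4 T-like, clusters 2 (2552 cells, Nr4a2, Nr4a1, Tnf, Il2) and 6 (1021 cells, Egr3, Egr1, Fosb, Icam1) are early activated CD4 T-like, cluster 7 (Foxp3, Ikzf2) is regulatory T-like and cluster 9 (274 cells, Il4, Cxcr6, Zbtb16) is innate-like Zbtb16 T-like. The others are called by number and leading genes, with a letter for the parts of clusters 11 and 12.

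Most Ccl4 UMIs were in 2 clusters. The early activated CD4 T-like cluster 2 held 43.0% of its UMIs and cluster 4 (2212 cells, Spry1, Tnfsf11, Zeb2) 24.4%, so 67.4% were in clusters with 24.9% of the cells. The level in cluster 2 was 155, 361, 118 and 260 CPM, and in cluster 4 it was 119, 156, 66.2 and 131 CPM; in both, the libraries labelled knockout were the lower 2. Cluster 0 was at 1.57 CPM. The highest pooled level, 1140 CPM, was in cluster 11b, 52 cells led by Il22, Ifng, Trdc and Nkg7, which gave 6.75% of the Ccl4 UMIs.

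Cxcl10 followed another set of cells. Cluster 6, with 5.35% of the cells, held 41.1% of its UMIs, at 941, 1295, 592 and 878 CPM. Cluster 3 (Il12rb2, Tbx21, Irf8, Gbp5) was at 90.0 CPM and held 13.3%, and the resting naive-like cluster 0 was at 80.9 CPM and held 11.3%. Clusters 4 and 1 were at 5.88 and 3.49 CPM, so cluster 4, a main source of Ccl4, had little Cxcl10, while cluster 0, nearly without Ccl4, had an intermediate level.

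Ccl5 and Xcl1 came mostly from cells outside the conventional CD4 clusters. The 3.10% of cells in clusters 9, 11 and 12 and the haemoglobin-rich cells held 73.8% of the Ccl5 UMIs and 72.5% of the Xcl1 UMIs, against 54.4% for Ccl3, 15.04% for Ccl4 and 4.77% for Cxcl10. Ccl5 was highest in cluster 11a, at 3892 CPM pooled: these 59 cells were led by Klrd1, Gzma and Tcrg-C4, held 27.3% of the Ccl5 UMIs, and had Cd3e at 403 and Trdc at 174 CPM. Cluster 9 was at 470, 187, 453 and 465 CPM and held 17.3%. Cluster 8 (526 cells, Nrn1, Ifng, Penk, Nrp1), a conventional cluster, was at 218 CPM and held 19.2%.

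Xcl1 was concentrated further, with 46.2% of its UMIs in the 274 cells of cluster 9, at 303, 529, 293 and 307 CPM, and 24.9% in cluster 11b, at 538 CPM. Cluster 9 made up 1.76%, 1.05%, 1.74% and 0.70% of the cells, so the libraries labelled knockout held more of these cells in each sex. The summed level of the 9 innate-like Zbtb16 marker genes moved the same way, at 437, 361, 419 and 275 CPM, with 4 of 8 tested called higher (Il4, Il13, Rora and Il2rb). Without cluster 9 the Xcl1 value was 0.52 (edgeR adjusted p = 0.715). Droplets with fewer than 200 UMIs had 2.16 to 5.42 times the Xcl1 level of the cells, and the part of free RNA in the result was not tested.

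Ccl3 was split over several clusters: 24.6% of its UMIs were in cluster 2, 19.3% in cluster 11b, 19.1% in the 34 cells of cluster 12a (led by Hist1h1b, Top2a, Mki67 and Lyz2) and 14.8% in cluster 9. Of the Ccl3 UMIs in cluster 12a, 94 were in 1 cell of the male library labelled knockout. Cluster 8 held 88.7% of the Ccl20 UMIs in 2.75% of the cells, with 0, 9, 3 and 184 UMIs in 0, 2, 1 and 3 cells; of the 184, 119 were in 1 cell.

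**Figure D4:**
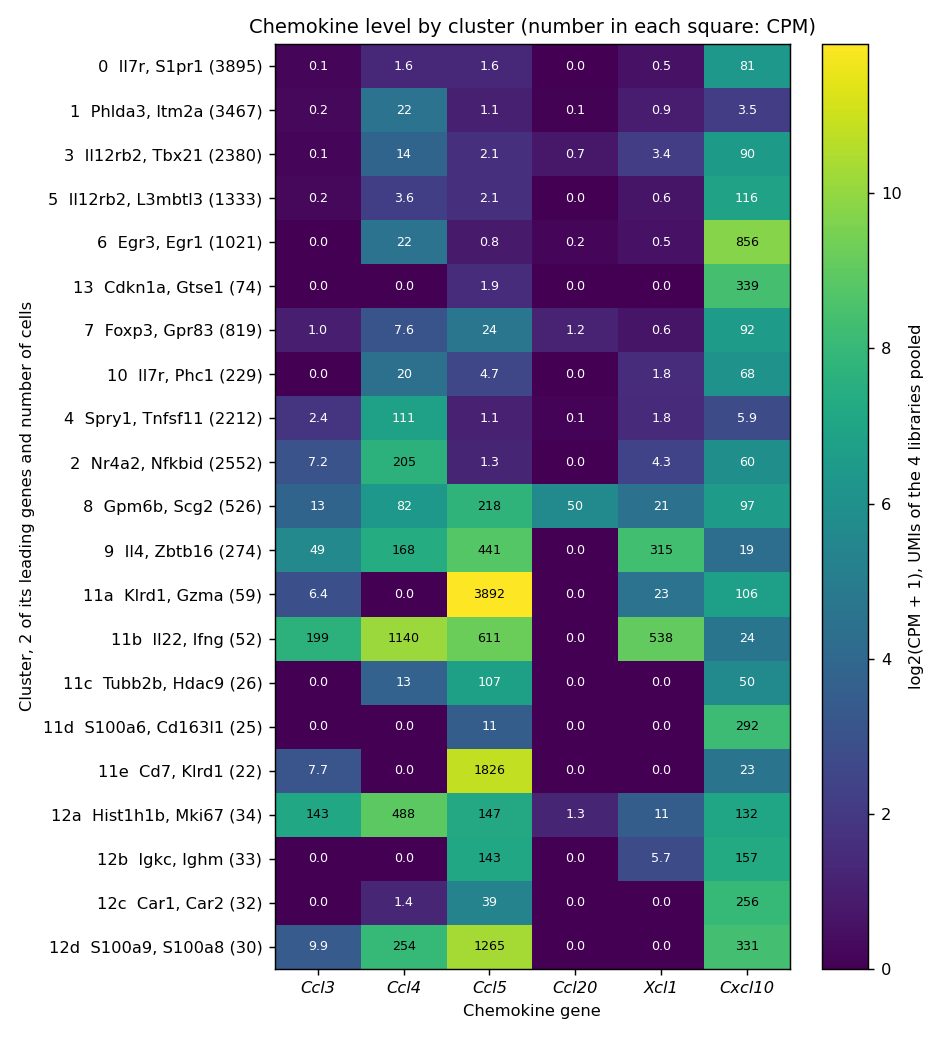
Level of each chemokine gene (columns) in each cluster (rows, named by leading genes and number of cells), with the pooled CPM of the 4 libraries written in each square; 5 haemoglobin-rich cells are not shown. Ccl4 peaks in cluster 11b, Cxcl10 in cluster 6 (856 CPM), Ccl5 in 11a (3892 CPM), Xcl1 in 9 and 11b, and Ccl20 in 8 (50.5 CPM).

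The genotype difference was then taken within the main Ccl4 producers, a comparison chosen after seeing the data. Within cluster 2, where 61 of 8748 genes (0.697%) were called, 0.423% higher and 0.274% lower, Ccl4 had 587, 846, 758 and 1782 UMIs among 706, 266, 897 and 683 cells. Thinned to 2000 UMIs, 6.52%, 10.5%, 5.46% and 8.20% of these cells were producers, a larger share in both libraries labelled wild type. Ccl4 fell by a log2 fold change of -1.23 (SE 0.09, edgeR adjusted p = 3.11e-09). In clusters 2 and 4 together, where 0.929% of 9796 genes were called (0.378% lower), the value was -1.06 (SE 0.09, edgeR adjusted p = 7.12e-26). Over all cells without the 592 outside the conventional clusters it was -1.08. The small p-values within clusters lean on the variance shared across genes and still come from the same 4 libraries.

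Cxcl10 had 291, 163, 377 and 342 UMIs in cluster 2 and a log2 fold change of 0.14 there (edgeR adjusted p = 0.970), and 0.058 in clusters 2 and 4 together (edgeR adjusted p = 1.00), against -0.45 over all cells. In cluster 6, its main source, the library labelled knockout was lower in each sex (941 against 1295 and 592 against 878 CPM), and 46.3%, 55.8%, 39.1% and 44.7% of its cells were producers after thinning to 2000 UMIs.

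In cluster 2 edgeR also called Ccl3 lower (-3.02, SE 0.36, adjusted p = 1.32e-05) and Xcl1 higher (6.00, SE 0.68, adjusted p = 9.97e-06), on few cells. Ccl3 had 2, 28, 15 and 94 UMIs there, in 2, 3, 2 and 9 cells, and its highest cells held 1, 26, 9 and 24. Xcl1 had 13, 0, 69 and 1 UMIs in 2, 0, 4 and 1 cells, and 12 of the 13 and 66 of the 69 were in 1 cell each.

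Few cells had more than 1 of the 6 genes, but low shares of producers alone would give few such cells. At full depth 14997 of the 19100 cells (78.5%) had none of them, 3747 (19.6%) had 1, 298 (1.56%) had 2, 42 had 3, 15 had 4 and 1 had 5. Counts of cells with both genes were set against the number expected if they occurred independently within each library.

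The neighbours Ccl3 and Ccl4 shared cells: 59 of the 94 Ccl3 cells (62.8%) also had Ccl4, 12.7 times the number expected, and 9.17 to 14.6 times in single libraries. Thinned to equal depth it was 28 of 44 cells, or 23.1 times. Xcl1 and Ccl5 were together in 134 cells, 55.1% of those with Xcl1 and 20.3 times the number expected, and Xcl1 went with Ifng, the type 1 cytokine gene, in 49 cells (21.1 times). Ccl4 went with the growth factor gene Il2 in 224 cells (2.44 times, 1.75 to 3.16 in single libraries) and with Ccl5 in 55 (2.14 times).

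Cxcl10 was found with Ccl4 less often than expected, in 91 cells or 0.677 times, with 0.43 to 0.84 in single libraries. It was also less frequent with Il2 (177 cells, 0.671 times) and near the expected number with Tnf (812 cells, 1.05 times). Ccl4 and Cxcl10, the members with the highest levels, thus shared fewer cells than independence would give, 91 against 134. Under independence, too, most Ccl4 cells would lack Cxcl10.

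**Figure D5:**
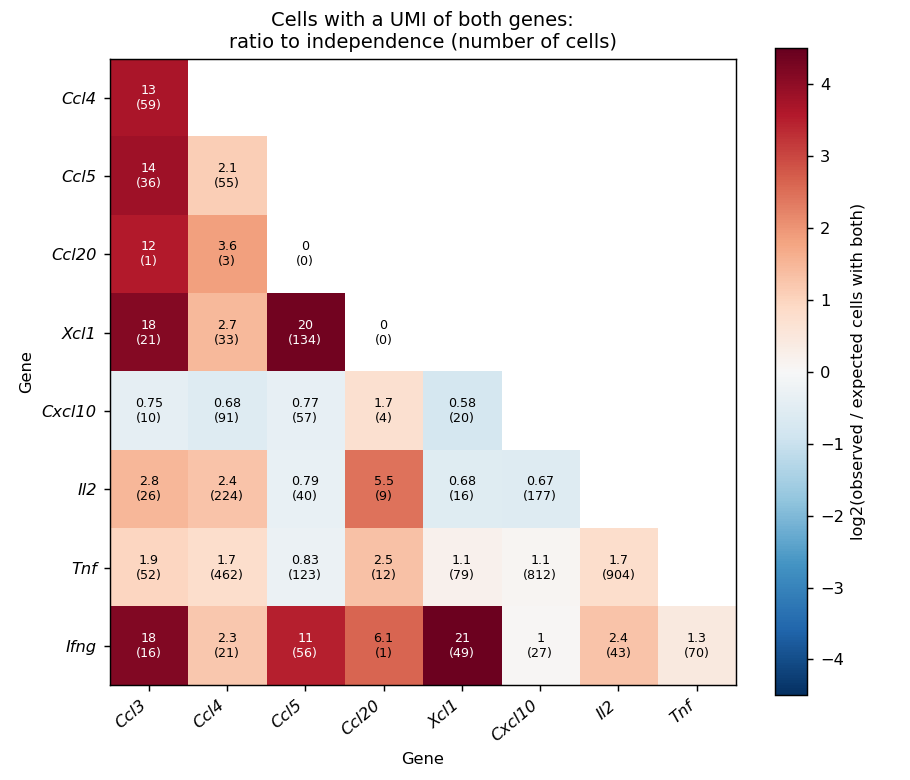
Cells with a UMI of both genes of a pair, at full depth: colour gives the ratio to the number expected under independence within libraries, with the number of cells in brackets. Ccl3 with Ccl4 (12.7), Ccl5 with Xcl1 (20.3) and Xcl1 with Ifng (21.1) are high, and Cxcl10 with Ccl4 (0.677) is below 1.

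Genes that marked the producers were ranked by the lowest of the 4 libraries' log2 ratios (pseudocount 5 CPM) between cells with at least 3 UMIs of a member and cells with none, a description that shares cells and libraries with the choice. Cells with at least 3 Ccl4 UMIs, 151, 73, 107 and 153 of them, were led by Ccl3 (3.46 to 4.78), followed by Rgs16, a regulator of G protein signalling (1.30 to 2.35), Hivep3, Spry1, Zeb2, Kif15, Nrn1 and Eea1. Il2 was at 400 CPM in them against 98.4 CPM in the others, a log2 ratio of 0.71 to 2.61, so Il2 was higher in these cells in each library.

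Cells with at least 3 Ccl5 UMIs (108, 23, 100 and 42) were led by Plac8 (4.22 to 5.04), Ctla2a, the chemokine receptor gene Ccr2, Klrd1, Ly6c2, Cxcr6 and Trf. Il2 was lower in these cells (-3.63 to -1.50) and Xcl1 higher (3.04 to 5.58). Cells with at least 3 Cxcl10 UMIs (336, 158, 346 and 363) were led by the adhesion molecule gene Icam1 (2.24 to 2.40, 262 against 49.2 CPM) and the transcription factor gene Egr3 (2.11 to 2.68), then Isg15, an interferon-induced gene (1.87 to 2.39), Parp14, Egr1, Top2a, Jun and Csrnp1. Their Actb differed by 0.20 to 0.36. Ccl3, Ccl20 and Xcl1 had fewer than 10 such cells in a library and are left out.

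Over 20 clusters, the genes whose log2(CPM + 1) was most like a member's gave a similar grouping, as correlations across clusters of the same libraries. Cxcl10 was most like Psmb9 (0.82), Gbp7, Gbp3, Tgtp2 and Parp14, which are interferon-inducible genes. Ccl5 was most like Nkg7, a cytotoxic granule gene (0.85), then Sec24d, Slc2a6, Katnal1 and F2rl2. Xcl1 was most like Cd160 (0.92), Ifng (0.90), Spry2, Klra1 and Cobll1, and Ccl3 like Ifng (0.82), Xcl1 (0.80), Spry2, Ccl4 (0.79) and Runx2os1. Ccl4 was most like Ppp5c and Eif1ad (0.80 each), then Ccl3, Sms and Rabep1, and Ccl20 like Igfbp7 (0.98), Ces2c, C2cd4b, Scg2 and Gzmk. Cluster 8 held 88.7% of the Ccl20 UMIs, so the correlations of Ccl20 rest mostly on that cluster. The correlation of Cxcl10 with Ccl4 was -0.38 and with Xcl1 -0.41.

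Among other genes of the chemokine system, the ligand gene Ccl25 had 1895 UMIs in all (13.1 CPM), more than Xcl1 with 1180. Most of the other listed ligands had few UMIs or none. The list counts that follow are edgeR's, and DESeq2 called fewer: 0 of the other ligands, receptors, regulators, type 1 and type 17 genes, 2 of the cytokine genes and 2 of the interferon response genes. Of a list of 31 other chemokine ligands, 20 had a UMI and 10 could be tested between labelled genotypes, of which 2 were called higher (Ccl22 and Cxcl2) and 1 lower (Pf4), with a list median log2 fold change of 0.37. Ccl22, a ligand of CCR4, was at 10.1, 0.0627, 3.11 and 1.32 CPM (edgeR's scaled library sizes, as for the genes below), a log2 fold change of 2.48 (edgeR adjusted p = 0.0346). It is among the leading genes of the B-like cluster 12b. The B cell marker list moved with the same groups, at 569, 73.7, 312 and 78.5 CPM summed, with 4 of 12 tested called higher, and its part in the result was not tested. Pf4, a platelet chemokine gene, was at 1.63, 5.70, 0 and 1.32 CPM.

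Among receptors for the members, 4 of 8 could be tested and 2 were called, both with a positive fold change for the label knockout. Ccr6, the receptor gene for Ccl20, was at 2.97, 1.38, 2.72 and 1.01 CPM (log2 1.29, edgeR adjusted p = 0.0220). Xcr1 was at 0.285, 0.0627, 1.54 and 0.337 CPM (log2 2.18, edgeR adjusted p = 0.0397). The Xcr1 levels are near the floor, and its groups overlapped across sexes. The summed level of 11 regulatory T cell markers moved with the same groups, at 981, 757, 923 and 710 CPM with 7 of the 11 called higher, and its part in the result was not tested. Of 17 cytokine genes tested, Il4 (1.90), Il13 (1.71) and Il22 (5.42) were called higher and Tnf lower, with a median of 0.13. Il22 was at 1.06, 0.313, 8.77 and 0.0673 CPM. Tnf was at 72.3, 101, 85.0 and 118 CPM, so like Ccl4 it was lower in both libraries labelled knockout (log2 -0.48, edgeR adjusted p = 0.0119). Il4 and Il13 are also markers of cluster 9, whose share moved the same way.

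Of 24 regulators induced by T cell receptor signalling, 1 was called higher (Batf, 0.43) and the median was -0.09. Of 7 genes that control chemokine mRNA decay, edgeR called 0 (1 at an unadjusted p under 0.05, and 0 by DESeq2), and the median was -0.09. Of 14 type 1 and cytotoxic genes, Zeb2 was called lower (-0.58, edgeR adjusted p = 0.00211), a gene that also marked the Ccl4 producers, and the median was 0.11. Of 7 type 17 genes tested, 3 were called higher (Rora, Ccr6 and Il22), with a median of 0.95. That median is the value of Il17a, which was not called and went opposite ways in the sexes (10.7, 1.13, 0.329 and 1.35 CPM). Il22 rested mostly on the male library labelled knockout.

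Of 21 interferon response genes, 5 were called higher in the libraries labelled knockout (Ifit3 0.86, Usp18 0.87, Isg15 0.62, Ifit3b 0.62 and Irf7 0.58) and the median was 0.22. Cxcl10 moved the other way (-0.45) although Isg15 marked its producers. Isg15 was at 98.4, 73.5, 61.1 and 34.6 CPM, higher in the library labelled knockout within each sex.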

How the data were processed

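Splenic CD4 T cells stimulated for 6 hours were profiled in 4 libraries by droplet single-cell RNA sequencing. The authors deposited raw UMI counts for each gene in each barcode; Cell Ranger wrote the tables per the file headers, and the submitters' processing notes name Cell Ranger 6.0.2 and mm10. All barcodes were deposited, so cells were called here: at least 2000 UMIs, at least 500 genes and at most 10% mitochondrial UMIs. Columns that map to no sample numbered 0. Doublets were marked at 0.8% per 1000 cells, because the automatic threshold of scrublet marked 0.0324% to 2.00%, and were kept except in the alternative without them. Coordinates are from GENCODE M21 (99.6% of identifiers matched), promoter windows from RefSeq GRCm38.p6.

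UMIs were summed per library and tested in edgeR 4.0.16 (R 4.3.3) with TMM, filterByExpr, quasi-likelihood and Benjamini-Hochberg adjustment over all genes; DESeq2 1.42.0 was an alternative. Tested on simulated data of the genotype comparison, the step recovered 47.5% of changed genes at a log2 change of 0.5 (12681 genes, 7.84% false calls) and 81.7% at 1 (12667 genes, 4.17%). The simulated counts took each gene's variance from edgeR's trend with level and held no sex effect. These rates may therefore not hold for genes whose UMIs sit in few cells, such as the members. CPM are UMIs per 1000000 in kept cells. Intervals are 95% exact Poisson or binomial and cover counting error only.

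Cells were scaled to 10000 counts, reduced with scanpy 1.11.5 to 2000 variable genes and 30 principal components, and grouped from 15 neighbours by leidenalg 0.10.2 (resolution 1); clusters with gamma-delta T, B or myeloid markers among their leading genes were split at 0.5. The 6 members were among 764 genes left out. A cluster was named from at least 3 list markers among its 30 leading genes. Python 3.11.15 with scipy 1.17.1 was used.

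The text names the 6 members, list genes with an adjusted p under 0.05, the 5 genes most correlated with each member over clusters, and the 8 genes that most marked its producers in the library where they did so least. Ccl25 is named besides, as the other ligand with the most UMIs. Members and lists were chosen with earlier results of these data known. The paired use of replicate numbers was not made, because they stand for the sexes, which are a covariate. Of the genes this rule names, some are not reported here.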

Additional observations from a re-analysis of the deposited data

Results flagged for a closer look

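Droplets with fewer than 200 UMIs, which hold free RNA, carried every member. Mean levels over the 4 libraries were 4.33 CPM for Ccl3, 55.6 for Ccl4, 45.0 for Ccl5, 2.49 for Ccl20, 28.2 for Xcl1 and 86.0 for Cxcl10. Relative to the kept cells of the same library, this was 0.775 to 0.892 times for Ccl4, 0.7995 to 1.02 for Cxcl10, 0.793 to 1.51 for Ccl3 and 0.986 to 2.03 for Ccl5. Xcl1 was above the cells in every library, by 2.16 to 5.42 times, and Ccl20 ranged from 0.483 to 10.7 times. The source of this RNA was not tested.

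In 2 clusters the labelled genotypes differed in opposite directions in the sexes for Ccl4. In cluster 3 the library labelled knockout was 3.14 times the one labelled wild type in females and 0.430 times in males. In cluster 6 the ratios were 4.10 and 0.0747. Each ratio sets 1 library against 1, on 3 to 164 Ccl4 UMIs, and the difference between the sexes was not tested. No group had more than 2 libraries, so none was searched for outlying samples.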

How the results depend on the processing

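Across 111 alternative values of the 6 genotype differences, 68 kept their direction and side of the threshold, 31 kept the direction and lost the call, 9 gained it and 3 reversed. Ccl4 was lower in the libraries labelled knockout under every alternative run (-1.20 to -0.61), but was no longer called with no filter on low counts (-0.91), no sex term (-0.88) or cells with at least 5000 UMIs (-0.67); leaving out 1 library gave -1.20 to -0.61. Ccl20 lost its call with no filter (-3.60) and no sex term (-3.73), and leaving out 1 library gave -4.34 to -2.25; it gave no value with clusters 2 and 4 only, with equal cell number and depth, or without its top 5 cells. Cxcl10 lost its call with no filter (-0.45), no sex term (-0.45), equal cell number and depth (-0.35) and doublets left out (-0.47), changed sign in clusters 2 and 4 (0.058), was larger in cells with at least 5000 UMIs (-0.89), and ranged from -0.71 to -0.21 with 1 library left out. Xcl1 lost its call with DESeq2 (0.72), no filter (0.71), no sex term (0.83), the Zbtb16-led cluster left out (0.52), thinning (0.44), equal cell number and depth (1.12), at least 5000 UMIs (0.99), doublets left out (0.70), conventional clusters only (0.86) and clusters 2 and 4 only (1.18), with 0.20 to 1.27 when 1 library was left out. Ccl5 became called in CD4 T-like cells (without the 149 in clusters 11a, 11b and 12b and the haemoglobin-rich cells, 1.01), with resting clusters left out (0.40), thinning (0.50), equal cell number and depth (0.79), at least 1000 UMIs (0.42), the top 5 cells left out (0.81) and conventional clusters only (1.34), and was 0.039 in cells with at least 5000 UMIs, with 0.078 to 0.75 when 1 library was left out. Ccl3 reversed with at least 5000 UMIs (0.034) and without the male library labelled wild type (0.025), was called in clusters 2 and 4 (-1.77), and had a leave-one-out range of -0.39 to 0.025. The set called CD4 T-like still held the other parts of clusters 11 and 12, among them 12d, led by S100a9 and S100a8. The cell highest for Ccl5 (181 UMIs) was in 12d, so this set is not purely CD4 T cells. The fits without 1 library also drop the sex term. The cause of these changes was not tested. The conventional-cluster and cluster 2 and 4 settings were chosen after seeing the data.

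The number of called genes, 155, became 46 with DESeq2, 20 with no filter, 7 with no sex term, 53 at equal cell number and depth, 254 with at least 1000 UMIs, 87 with at least 5000, 46 without doublets, 91 in clusters 2 and 4, and 43 to 117 with 1 library left out. Of the sex differences, Ccl5 lost its call with DESeq2 (-0.49), no filter (-0.49) and CD4 T-like cells (-0.038), Xcl1 with DESeq2 (-0.82) and no filter (-0.85), Cxcl10 with no filter (-0.46), and Ccl3 reversed with thinning (-0.22). The ratio of Ccl3 producer shares, labelled knockout over labelled wild type, was 1.08 after thinning and reversed at full depth (0.639), with producers defined by at least 2 UMIs (0.462) or at least 5 UMIs (0.521) and in conventional clusters (0.752). The ratio of UMIs per producer reversed for Ccl3 at full depth (1.10), for Ccl5 in CD4 T-like cells (1.19) and conventional clusters (1.72), and for Xcl1 at full depth (1.04) and in conventional clusters (1.39). The share of UMIs in the top 1% of cells moved for Ccl5 to 98.2% in conventional clusters and for Xcl1 to 100% thinned, 98.1% in CD4 T-like cells and 100% in conventional clusters. After thinning, fewer than 1% of cells had Xcl1 in every library, which fixes that value at 100%. No paired analysis was possible because the replicate numbers stand for sex, which is already a term of the fit. Depth limits Ccl3 and Ccl20, with 566 and 221 UMIs in all.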
